A study of Sus scrofa with 20 samples.

Results

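DDAH1, which encodes dimethylarginine dimethylaminohydrolase 1, was followed in pig heart through the single probe set that the platform's annotation names for it, 1 of 23999 tested probe sets and 1 of 6765 genes with a single symbol. The gene was chosen by its symbol after earlier results of these arrays had shown it higher after ischemia, so its levels and its differences between groups are given as a description, without a test. Hearts of 20 female pigs were profiled on Affymetrix porcine arrays, with 5 animals in each group and a separate array for each. RCS pigs underwent 90 min of low-flow ischemia by coronary artery stenosis, 6 times at intervals of 12 h. RCO pigs went through sessions of 2 coronary occlusions of 10 min, with 10 min of reperfusion after each occlusion, 6 times at intervals of 12 h. SWOP pigs (the second window of preconditioning) had that session once, followed by 24 h of reperfusion. Control pigs were sham-operated. Age, breed and the time from the last RCO or RCS episode to sampling are not stated. The series title asks whether the mechanisms of preconditioning after chronic ischemia differ from those of the classical second window.

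Nitric oxide is made from arginine by the nitric oxide synthases. Asymmetric dimethylarginine, released when proteins with methylated arginines are broken down, competes with arginine and inhibits these enzymes. DDAH1 degrades asymmetric dimethylarginine to citrulline and dimethylamine, and in mammals it is regarded as the main enzyme that clears this inhibitor. Nitric oxide is known as both a trigger and a mediator of the delayed phase of preconditioning in the heart. The values below are the deposited log2 signals, on which a difference of 1 is a 2-fold difference.

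DDAH1 signal stood at 9.85, 10.40, 10.84, 10.16 and 10.96 on RCS arrays 1 to 5. It stood at 8.92, 9.66, 10.33, 9.41 and 8.72 on RCO arrays 1 to 5, and at 9.0, 9.43, 9.73, 9.42 and 9.92 on SWOP arrays 1 to 5. On control arrays 1 to 5 it stood at 8.52, 7.51, 9.03, 8.50 and 7.79. RCS was the highest group, control the lowest, and RCO and SWOP lay between them, the SWOP values falling inside the range of RCO. Each of the 5 RCS arrays exceeded every control array, with 0.82 between the lowest RCS and the highest control array. Every RCS array lying above every control array was seen for 23.3% of the 6765 genes with a single symbol. In SWOP 4 of 5 arrays lay above every control array, SWOP replicate 1 falling just under control replicate 3. In RCO 3 of 5 arrays did.

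**Figure D1:**
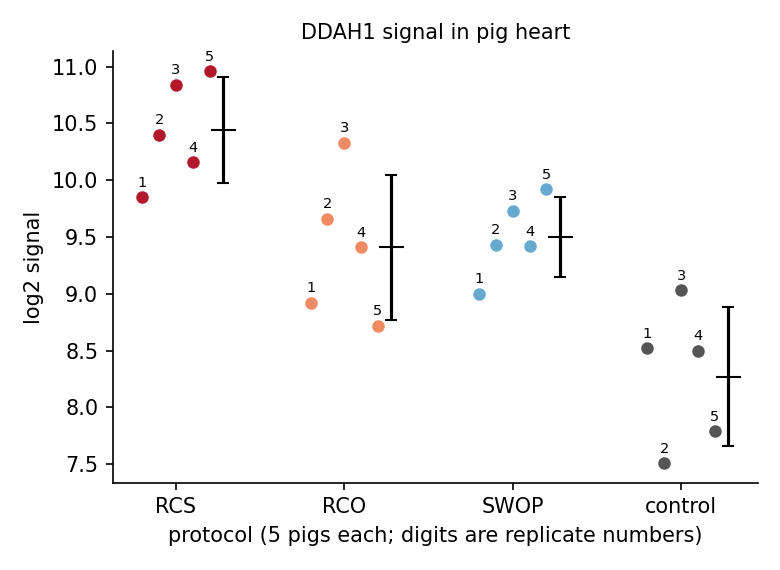
Log2 signal of DDAH1 (vertical axis) on each of 20 arrays, by protocol, with the mean and SD of the 5 pigs of each group as bars and the replicate number above each point. The RCS arrays lie between 9.85 and 10.96, above all control arrays (7.51 to 9.03), and RCO is spread from 8.72 to 10.33.

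Group means of DDAH1 were 10.44 ± 0.46 in RCS, 9.41 ± 0.64 in RCO, 9.50 ± 0.35 in SWOP and 8.27 ± 0.61 in control (SD, n = 5 each). RCS exceeded control by 2.17 ± 0.30 (SE), a 4.51-fold difference. The difference from control was 1.14 ± 0.30 (2.20-fold) in RCO and 1.23 ± 0.30 (2.35-fold) in SWOP. These 3 differences share the same control arrays. Between protocols, RCS exceeded RCO by 1.03 ± 0.30 and SWOP by 0.94 ± 0.30, with RCS and SWOP overlapping only in that RCS replicate 1 (9.85) lay below SWOP replicate 5 (9.92). RCO and SWOP differed by −0.09 ± 0.30 (RCO minus SWOP), less than the spread within either group, and the sign turned when RCO replicate 1 (0.03), RCO replicate 5 (0.08) or SWOP replicate 5 (0.01) was left out. The error of these DDAH1 differences was wide, against a median SE of 0.11 over all tested probe sets. As a description of size, the DDAH1 difference from control was above that of 98.9% of genes in RCS, 98.4% in RCO and 99.9% in SWOP.

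Within RCO the 2 arrays of highest DDAH1 signal were also those that stood apart over all tested probe sets. RCO replicates 2 and 3 stand apart from the other RCO arrays on the first principal component, at 43.96 and 29.37, against −18.34 to −3.56 on RCO replicates 1, 4 and 5. DDAH1 was at 9.66 and 10.33 on those 2 arrays and at 8.72 to 9.41 on the other 3. Without both arrays the RCO difference from control was 0.75, the RCO minus SWOP difference −0.48 and the RCS minus RCO difference 1.43. Other groups did not all show this order. RCS replicate 5 was highest of its group in DDAH1 (10.96) and lowest on the component (26.38), as was SWOP replicate 5 (9.92 and −27.45). In control, replicate 2 was lowest in both (7.51 and −39.85) and replicate 3 highest in both (9.03 and −26.65).

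Several properties of the arrays differed between the groups alongside DDAH1. The interquartile range of log2 signal was 3.27 to 3.44 in RCS, 3.05 to 3.32 in RCO, 3.26 to 3.30 in SWOP and 3.04 to 3.16 in control. The control array of lowest DDAH1 signal, replicate 2, also had the narrowest range (3.04) and that of highest DDAH1 signal, replicate 3, the widest (3.16). In RCS the order was otherwise: replicate 5, highest in DDAH1, had the narrowest range (3.27). After quantile normalization, which gives every array the same distribution, DDAH1 differed from control by 2.07 in RCS, 1.11 in RCO and 1.15 in SWOP. RNA integrity was read from the actin control probe sets as the 3′ signal less the 5′ signal, which was 0.51 to 0.73 in RCS, 0.78 to 1.69 in RCO, 1.22 to 1.70 in SWOP and 1.24 to 1.96 in control. SWOP and RCO overlapped control in this measure, and RCS did not. The GAPDH control probe sets gave −0.06 to 0.19 in RCS, −0.23 to 0.08 in RCO, −0.17 to −0.01 in SWOP and −0.16 to −0.06 in control, so that here RCS had the highest values. Spike-in probe sets averaged 10.21 to 10.43 in RCS, 10.52 to 11.09 in RCO, 10.46 to 10.91 in SWOP and 10.58 to 10.66 in control, lowest in RCS without overlap. The part of RNA integrity and of spike-in signal in the DDAH1 differences was not tested.

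**Figure D2:**
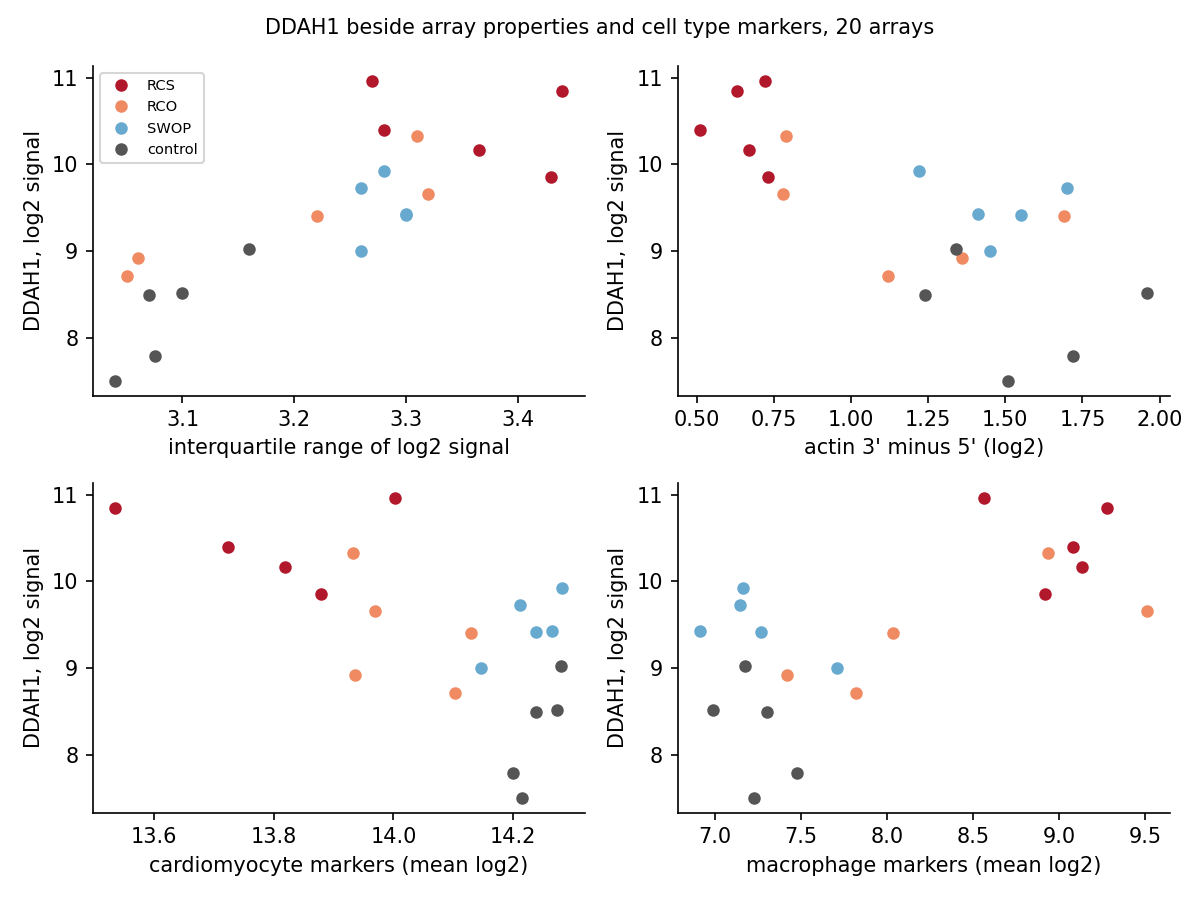
DDAH1 log2 signal (vertical axes) of 20 arrays against the interquartile range of log2 signal, the actin 3′ minus 5′ signal, and the mean log2 signal of 9 cardiomyocyte and 7 macrophage markers. RCS arrays stand apart from control in all 4 panels, and the actin values of SWOP overlap those of control.

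Markers of cell types were set beside DDAH1, since fewer cells of a type and less RNA per cell cannot be told apart in whole tissue. The 9 measured cardiomyocyte markers were bright on every array, as the heart label asks, and their mean log2 signal was 13.54 to 14.00 in RCS, 13.93 to 14.13 in RCO, 14.15 to 14.28 in SWOP and 14.20 to 14.28 in control. Genes were called with limma at a Benjamini-Hochberg adjusted p below 0.05, which took in 54.5% of all 6765 genes in RCS against control (28.8% higher, 25.7% lower). In that comparison 7 of the 9 cardiomyocyte markers fell, among them the calcium release channel RYR2 at −1.22 ± 0.19 (SE, adjusted p = 6.87e-05), and 2 did not pass. Endothelial markers, from cells in which DDAH1 is known to be active, had a mean of 8.43 to 9.0 in RCS, 8.12 to 8.85 in RCO, 8.83 to 9.06 in SWOP and 8.78 to 8.86 in control. Of 10 endothelial markers 1 rose in RCS against control, ENG, a co-receptor of the TGF-beta family, at 0.59 ± 0.14 (adjusted p = 0.00262), and 9 did not pass.

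Macrophage markers had a mean of 8.56 to 9.28 in RCS, 7.42 to 9.51 in RCO, 6.91 to 7.71 in SWOP and 6.99 to 7.48 in control. In RCS against control, where 28.8% of all genes were called higher and 25.7% lower, 5 of 7 macrophage markers rose. Fibroblast markers ranged over 10.57 to 11.27 in RCS, 9.86 to 11.12 in RCO, 9.88 to 10.28 in SWOP and 9.27 to 10.36 in control, with 4 of 7 higher in RCS. Smooth muscle markers ranged over 10.38 to 10.83 in RCS, 9.79 to 10.54 in RCO, 10.06 to 10.53 in SWOP and 9.78 to 10.14 in control, with 3 of 7 higher and 2 lower in RCS. CNN1, the smooth muscle calponin, rose by 2.22 ± 0.24 in RCS (SE, adjusted p = 2.02e-06), 1.92 ± 0.24 in RCO (0.000204) and 1.49 ± 0.24 in SWOP (0.00646) against control. In SWOP against control, where 8.16% of all genes were called (4.66% higher, 3.5% lower), CNN1 was the 1 of 7 smooth muscle markers that passed. LEP, the adipocyte hormone leptin, was the 1 of 4 adipocyte markers, lower by 0.38 ± 0.10 (SE, adjusted p = 0.0341). In the same comparison 0 of 7 macrophage, 0 of 7 fibroblast, 0 of 9 cardiomyocyte and 0 of 10 endothelial markers passed limma. At an unadjusted p below 0.05 the counts there were 2 higher smooth muscle, 2 lower adipocyte, 0 macrophage, 2 higher and 1 lower fibroblast, 0 cardiomyocyte and 1 higher endothelial marker. The share of all genes at that unadjusted p is not given, so these counts have no background. In RCO against control 4 of 7 macrophage and 2 of 7 fibroblast markers rose, as did 1 of 7 smooth muscle markers, CNN1. There 2 of 9 cardiomyocyte, 1 of 10 endothelial and 1 of 4 adipocyte markers fell, and 0 of 5 T and NK cell markers passed. Of all genes 11.3% were called higher and 4.26% lower in that comparison. In RCS against control 2 of 4 adipocyte, 1 of 5 T and NK cell and 1 of 1 B cell markers fell. RCO replicates 2 and 3, the RCO arrays of highest DDAH1 signal, also had the highest macrophage (9.51 and 8.93) and fibroblast (10.99 and 11.12) means of their group. The part of these cell types in the DDAH1 differences was not tested.

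The other genes of nitric oxide metabolism were taken from a fixed list of 63 genes, of which 32 had a measured probe set (GUCY1B1 as GUCY1B3). The list was chosen with earlier results of these data known. They were tested with limma across all 23999 probe sets, with Benjamini-Hochberg adjustment, and a gene passed below 0.05. In RCS against control 10 of 32 rose, 8 fell and 14 did not pass, a share of 56.2% called against 54.5% of all 6765 genes (28.8% higher, 25.7% lower), which is near the background. The median difference was 0.17, and −0.004 over all genes. In RCO against control 0 rose, 1 fell and 31 did not pass, where 15.6% of all genes were called (11.3% higher, 4.26% lower). At an unadjusted p below 0.05, 5 were higher and 5 lower in RCO, a count without a background, since the share of all genes is not given. In SWOP against control 2 rose, 2 fell and 28 did not pass, where 8.16% of all genes were called (4.66% higher, 3.5% lower). The share of the list called was thus 3.12% in RCO and 12.5% in SWOP. DDAH1 was chosen with its rise in these arrays known, so its size beside the list is not a result. Against control, the largest difference of the list was that of ARG1 in RCO (1.05 ± 0.53, SE) and that of ARG2 in SWOP (0.80 ± 0.30). Neither passed (adjusted p = 0.211 for ARG1 and 0.0957 for ARG2).

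**Figure D3:**
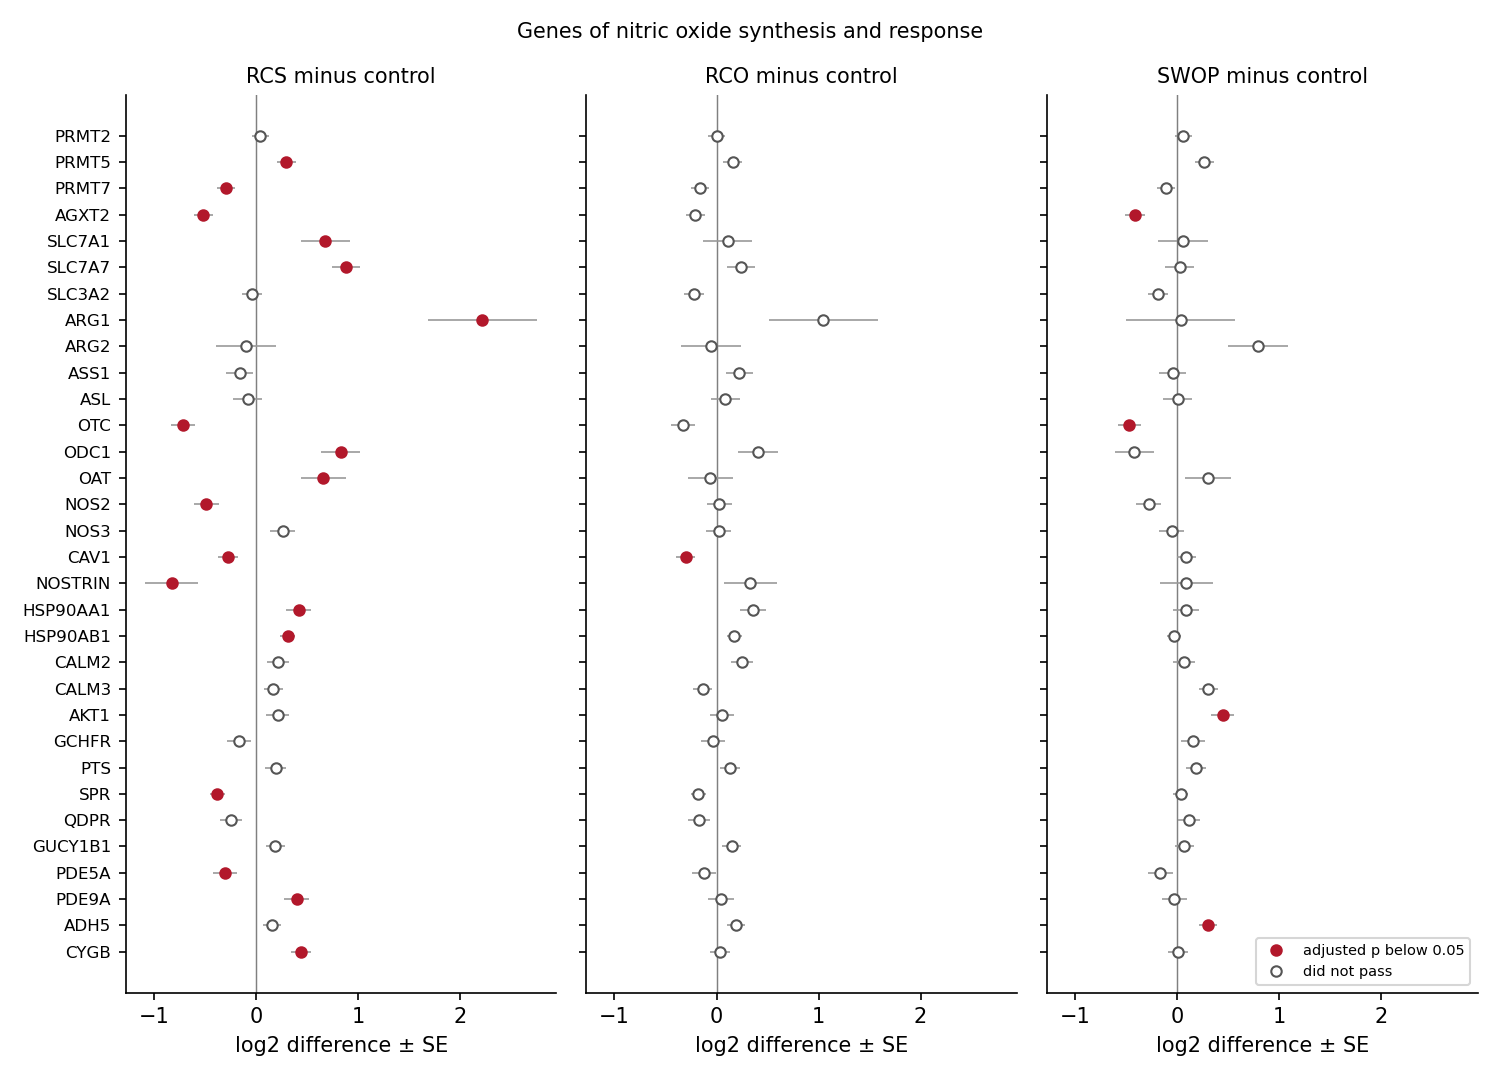
Log2 difference from control with its SE (horizontal axis) for 32 measured genes of nitric oxide metabolism in RCS, RCO and SWOP. Filled points passed limma at an adjusted p below 0.05: 18 genes in RCS, 1 in RCO and 4 in SWOP.

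Among enzymes that make or clear methylated arginines, 4 of 11 were measured. DDAH2, the second dimethylarginine hydrolase, and PRMT1, the main source of asymmetric dimethylarginine, were not among them. PRMT5, which makes symmetric dimethylarginine, was 9.01 ± 0.15 in RCS and 8.71 ± 0.06 in control (SD, n = 5 each), a rise of 0.30 ± 0.09 (SE, adjusted p = 0.0125). This call did not hold after quantile normalization (0.17, adjusted p = 0.0908) or with the mean of its 3 probe sets (0.09, adjusted p = 0.343). PRMT7, a monomethylating arginine methyltransferase, fell by 0.30 ± 0.09 in RCS against control (adjusted p = 0.0105), and PRMT2 did not pass in any comparison. AGXT2, a mitochondrial aminotransferase that offers a second route of clearance, was 4.92 to 5.22 in RCS, 5.24 to 5.59 in RCO, 4.89 to 5.37 in SWOP and 5.44 to 5.73 in control. It fell by 0.52 ± 0.10 in RCS (adjusted p = 0.000323) and by 0.41 ± 0.10 in SWOP (adjusted p = 0.0188), every array of both groups lying below every control array. The SWOP call of AGXT2 was lost without SWOP replicate 4 (adjusted p = 0.0565) or control replicate 4 (0.0561).

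AGXT2 is a dim probe set, below the 30th percentile of mean signal (5.48), as are OTC, ARG1 and PDE5A. Ranked by mean signal, the 8000 dimmest probe sets had a median RCS minus control difference of −0.13 and the 8000 brightest, DDAH1 among them, 0.06. In SWOP minus control these medians were −0.08 and 0.11. The part of the signal level in the falls of AGXT2 and OTC was not tested.

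Arginine transport and arginine metabolism held the largest differences of the list. ARG1, the arginase of the urea cycle, which competes with nitric oxide synthase for arginine, stood at 6.81, 6.10, 7.26, 7.29 and 5.50 on RCS arrays 1 to 5. It stood at 4.72, 8.18, 5.41, 4.55 and 4.24 on RCO arrays, at 4.20 to 4.89 on SWOP arrays and at 3.98 to 5.26 on control arrays. All RCS arrays thus exceeded every control and SWOP array, while in RCO replicate 2 exceeded all other arrays and the other 4 stood at 4.24 to 5.41. RCO replicate 2 was also the array of highest macrophage signal, and on it the neutrophil marker S100A9, a dim probe set, read 7.78, against 4.28 to 4.92 on the other RCO arrays and 4.21 to 4.55 on control arrays. The neutrophil marker S100A8, also dim, read 5.68 there, against 5.00 to 5.24 on control arrays. S100A12, dim as well, read 4.58, inside its control range of 4.30 to 4.83. In RCO against control, where 15.6% of all genes were called, 0 of 3 neutrophil markers passed. ARG1 was 4.66-fold higher in RCS than in control (2.22 ± 0.53, SE, adjusted p = 0.00237) and 4.54-fold higher than in SWOP (adjusted p = 0.00422). ARG2, the mitochondrial arginase, was 8.26 ± 0.48 in RCS and 9.15 ± 0.33 in SWOP (SD), lower by 0.89 ± 0.30 in RCS (SE, adjusted p = 0.0275). That call was lost without RCS replicate 2 (0.0634) or 3 (0.0884) and without SWOP replicate 2 (0.066), 3 (0.0549) or 4 (0.0569). Against control it did not pass in any protocol.

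SLC7A7, a subunit of a cationic and neutral amino acid exchanger, was 6.62 to 6.99 in RCS, 5.76 to 6.64 in RCO, 5.69 to 6.13 in SWOP and 5.57 to 6.19 in control. Its brightest probe set rose by 0.88 ± 0.14 in RCS against control (adjusted p = 7.64e-05), whereas its other, dimmer probe set fell by 0.56 (adjusted p = 0.000272), so the direction of this gene is uncertain. SLC7A1, the main arginine importer, was 1.60-fold higher in RCS than in control (0.68 ± 0.24, adjusted p = 0.0267). That call was lost after quantile normalization (adjusted p = 0.07), without RCS replicate 3 (0.0631) and without control replicate 1 (0.0609) or 3 (0.0519).

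ODC1, which turns ornithine into putrescine, stood at 10.35 to 10.83 in RCS, 9.88 to 10.44 in RCO, 9.09 to 9.69 in SWOP and 9.19 to 10.37 in control. It rose 1.78-fold in RCS against control (adjusted p = 0.00189) and 1.77-fold in RCO against SWOP (adjusted p = 0.0141, and 0.0611 without RCO replicates 2 and 3 together). It rose 2.38-fold in RCS against SWOP (adjusted p = 0.000115). ODC1 did not overlap between SWOP and either RCS or RCO. With the mean of its 2 probe sets the RCS minus control difference was 0.33 (adjusted p = 0.0566). OAT, the ornithine aminotransferase, rose by 0.66 ± 0.22 in RCS against control (adjusted p = 0.02), and lost that call after quantile normalization (0.0656), without RCS replicate 2 (0.0504) or without control replicate 2 (0.0696). OTC, the urea cycle enzyme that makes citrulline from ornithine, fell by 0.72 ± 0.12 in RCS (adjusted p = 8.95e-05) and by 0.47 ± 0.12 in SWOP (adjusted p = 0.0249), no array of either group reaching the control range. The SWOP call of OTC was lost without SWOP replicate 2 (0.0522) or 4 (0.0668) and without control replicate 2 (0.0671), 4 (0.0655) or 5 (0.0608). ASS1 and ASL, which return citrulline, the product of both DDAH1 and nitric oxide synthase, to arginine, did not pass against control. ASS1 differed from control by −0.16 ± 0.13 in RCS, 0.22 ± 0.13 in RCO and −0.04 ± 0.13 in SWOP, and ASL by −0.08 ± 0.14, 0.09 ± 0.14 and 0.01 ± 0.14.

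**Figure D4:**
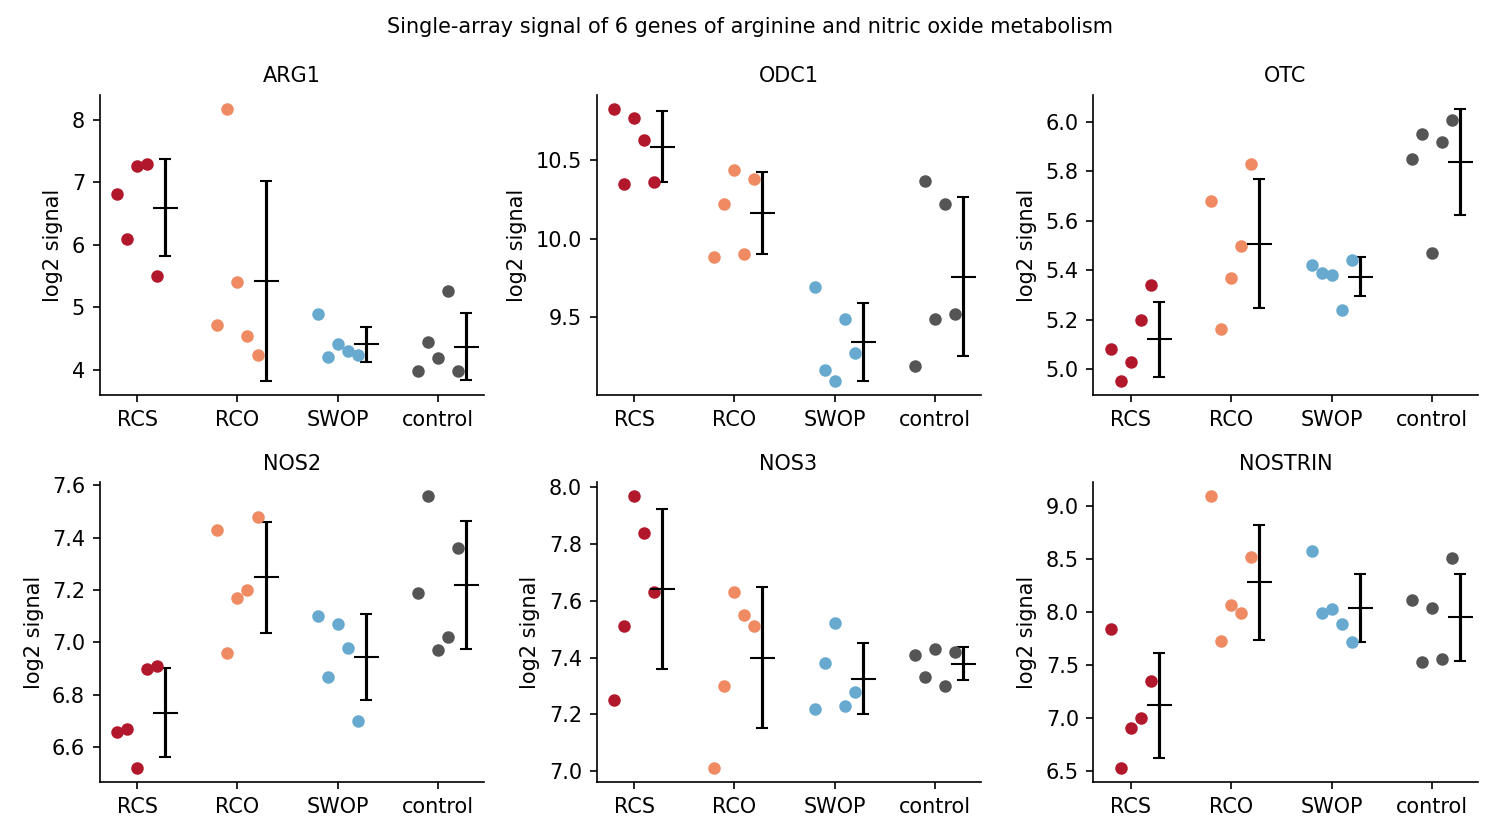
Log2 signal of ARG1, ODC1, OTC, NOS2, NOS3 and NOSTRIN (vertical axes, each on its own scale) on single arrays of the 4 groups, with mean and SD (n = 5 each). ARG1 is high in RCS and on 1 RCO array (8.18), and NOS2, OTC and NOSTRIN are lowest on average in RCS.

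Of the nitric oxide synthases, which asymmetric dimethylarginine inhibits, NOS2 and NOS3 were measured. NOS3, the endothelial form, was 7.25 to 7.97 in RCS, 7.01 to 7.63 in RCO, 7.22 to 7.52 in SWOP and 7.30 to 7.43 in control. All groups overlapped, and NOS3 did not pass in any of the 6 comparisons, with 0.26 ± 0.12 (SE) in RCS against control (adjusted p = 0.085). NOS2, the inducible form, was 6.52 to 6.91 in RCS, 6.96 to 7.48 in RCO, 6.70 to 7.10 in SWOP and 6.97 to 7.56 in control. It fell by 0.49 ± 0.12 in RCS against control (adjusted p = 0.00321) and by 0.52 ± 0.12 against RCO (adjusted p = 0.00915), without overlap in either case. Its other, dimmer probe set went the same way but passed in neither (−0.32, adjusted p = 0.0646, and −0.36, adjusted p = 0.0685). In SWOP, the group named for the delayed protection, NOS2 differed from control by −0.28 ± 0.12 and did not pass (adjusted p = 0.157).

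NOSTRIN, a trafficking protein that draws endothelial nitric oxide synthase from the membrane, was 7.13 ± 0.49 in RCS, 8.28 ± 0.54 in RCO, 8.04 ± 0.32 in SWOP and 7.95 ± 0.41 in control (SD, n = 5 each). It fell by 0.83 ± 0.26 in RCS against control (SE, adjusted p = 0.0134) and by 1.16 ± 0.26 against RCO (adjusted p = 0.00688). The caveolar protein CAV1, which binds and restrains the same enzyme, fell by 0.28 ± 0.09 in RCS against control (adjusted p = 0.0221, and 0.0566 without control replicate 1). In RCO it fell by 0.30 ± 0.09 (adjusted p = 0.0451), the only call of the list there. That RCO call was lost without RCO replicate 2, 3 or 4 or without any single control array, as well as under 4 other settings, and the difference was −0.16 without RCO replicates 2 and 3 together (adjusted p = 0.334). The chaperone HSP90AB1, which binds nitric oxide synthase, rose by 0.31 ± 0.07 in RCS against control (adjusted p = 0.00175). HSP90AA1 rose by 0.42 ± 0.12 on its brightest probe set (adjusted p = 0.00948), but 2 of its 5 probe sets fell and passed, and the call was lost after quantile normalization (0.074). CALM3, 1 of the calmodulin genes, whose protein activates nitric oxide synthase, was 9.36 to 9.55 in RCS, 8.98 to 9.27 in RCO, 9.40 to 9.86 in SWOP and 9.10 to 9.50 in control. It did not pass against control, but was lower by 0.44 ± 0.09 in RCO against SWOP (adjusted p = 0.00868) and higher by 0.30 ± 0.09 in RCS against RCO (adjusted p = 0.0302), without overlap in either. With the mean of its 6 probe sets these were −0.10 (adjusted p = 0.499) and 0.15 (0.223). The second call was also lost after quantile normalization (0.112), without the 2 arrays of highest spike-in signal (0.0688), with only both groups fitted (0.0621), and without RCS replicate 2, 3 or 4 or RCO replicate 1 or 5. The kinase AKT1, which activates endothelial nitric oxide synthase, rose by 0.45 ± 0.11 in SWOP against control (adjusted p = 0.0249) on its brightest probe set, while its other probe set fell by 0.41 (adjusted p = 0.0149). The AKT1 call was also lost after quantile normalization (0.0957), without SWOP replicate 2, 4 or 5 and without control replicate 2 or 4 (adjusted p from 0.0593 to 0.0738).

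SPR, sepiapterin reductase of tetrahydrobiopterin synthesis, the cofactor of nitric oxide synthase, was 9.46 to 9.73 in RCS, 9.64 to 9.93 in RCO, 9.92 to 10.14 in SWOP and 9.89 to 10.10 in control. It fell by 0.38 ± 0.07 in RCS against control (adjusted p = 0.000489) and by 0.41 ± 0.07 against SWOP (adjusted p = 0.000385), with no overlap in either. QDPR, which regenerates the cofactor, fell by 0.36 ± 0.11 in RCS against SWOP (adjusted p = 0.0165), a call lost without RCS replicate 2 (0.0538) or 3 (0.0519), and PTS did not pass in any comparison. GCHFR, the feedback regulator of tetrahydrobiopterin synthesis, was lower by 0.32 ± 0.12 in RCS against SWOP (adjusted p = 0.0443), with overlapping groups, a call lost under 10 settings and at 0.138 without SWOP replicate 1. Downstream of nitric oxide, the soluble guanylate cyclase subunit GUCY1B1 did not pass in any comparison, at 8.98 ± 0.14 in RCS and 8.80 ± 0.22 in control. PDE9A, a cyclic GMP phosphodiesterase, rose by 0.40 ± 0.13 in RCS against control (adjusted p = 0.0138). PDE5A, another, fell by 0.31 ± 0.12 (adjusted p = 0.0375) on a dim probe set and lost that call after quantile normalization (0.227), after median centring (0.0573), without RCS replicate 3, 4 or 5 and without control replicate 1, 2 or 4. CYGB, cytoglobin, a globin that consumes nitric oxide, was 7.66 to 8.19 in RCS, 7.30 to 7.66 in RCO, 7.36 to 7.57 in SWOP and 7.28 to 7.68 in control. It rose by 0.44 ± 0.10 in RCS against control (adjusted p = 0.00134). ADH5, which reduces S-nitrosoglutathione, rose by 0.31 ± 0.09 in SWOP against control (adjusted p = 0.0442). That call was lost without any single SWOP array and without control replicate 2, 4 or 5, and after quantile normalization (0.17, adjusted p = 0.219).

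Between protocols, 12 of 32 genes of the list passed in RCS against SWOP (6 higher, 6 lower), against 38% of all genes (20.3% higher, 17.7% lower). In RCS against RCO 9 of 32 passed (4 higher, 5 lower), against 21.6% of all genes (11.7% higher, 9.9% lower), and in RCO against SWOP 4 of 32 (1 higher, 3 lower), against 11.9% (5.54% higher, 6.4% lower). Over the 6 comparisons 25 of the 32 genes passed at least once. PRMT2, SLC3A2, ASL, NOS3, CALM2, PTS and GUCY1B1 did not pass in any. The share of all genes passing at least once is not given here, so 25 of 32 has no background. RCS against control alone called 54.5% of all genes.

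Genes whose signal ran most like that of DDAH1 were sought among 5697 named genes above the 30th percentile of mean signal. Over all 20 arrays the highest Pearson correlations were those of PPIA, a peptidyl-prolyl isomerase (r = 0.91), PRPS2, a nucleotide synthesis enzyme (0.90), ABCF1, a translation factor (0.90), TUBA1B, an alpha tubulin (0.90), and CCDC80, a secreted matrix protein (0.89). SLC25A24, SH3BP5 and LMAN2 completed the first 8. The lowest were those of SLC23A1, a vitamin C transporter (−0.92), ACSBG1 (−0.91) and PCSK2 (−0.90). These values include the differences between groups, and the middle 50% of the 5697 genes already lay between −0.42 and 0.56. PPIA stood at 13.04 to 13.36 in RCS, 12.24 to 13.04 in RCO, 12.32 to 12.63 in SWOP and 11.61 to 12.11 in control.

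With each array taken as its deviation from its group mean, which removes the group differences, the highest correlations with DDAH1 over the 20 arrays were those of CYP51, a sterol demethylase (r = 0.83), CCDC80 (0.82), PAPD4 (0.79) and A2M, a protease inhibitor (0.78). The lowest were NCAPH2 (−0.82), H2AFY (−0.80) and SLC23A1 (−0.79). CCDC80 was thus among the first 8 in both rankings. It stood at 10.61, 11.93, 12.18, 11.20 and 10.43 on RCO arrays 1 to 5 and at 10.40, 9.27, 10.43, 10.09 and 9.49 on control arrays 1 to 5, so that, like DDAH1, it was highest on RCO replicate 3 and on control replicate 3 and lowest on RCO replicate 5 and on control replicate 2. In RCS it differed from DDAH1 in that replicate 5, highest in DDAH1 (10.96), was second lowest in CCDC80 (11.48). Of the nitric oxide list, OAT had the highest correlation of deviations with DDAH1 (0.66) and NOS2 the lowest (−0.65). The arrays share normalization, so these correlations are descriptions only.

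**Figure D5:**
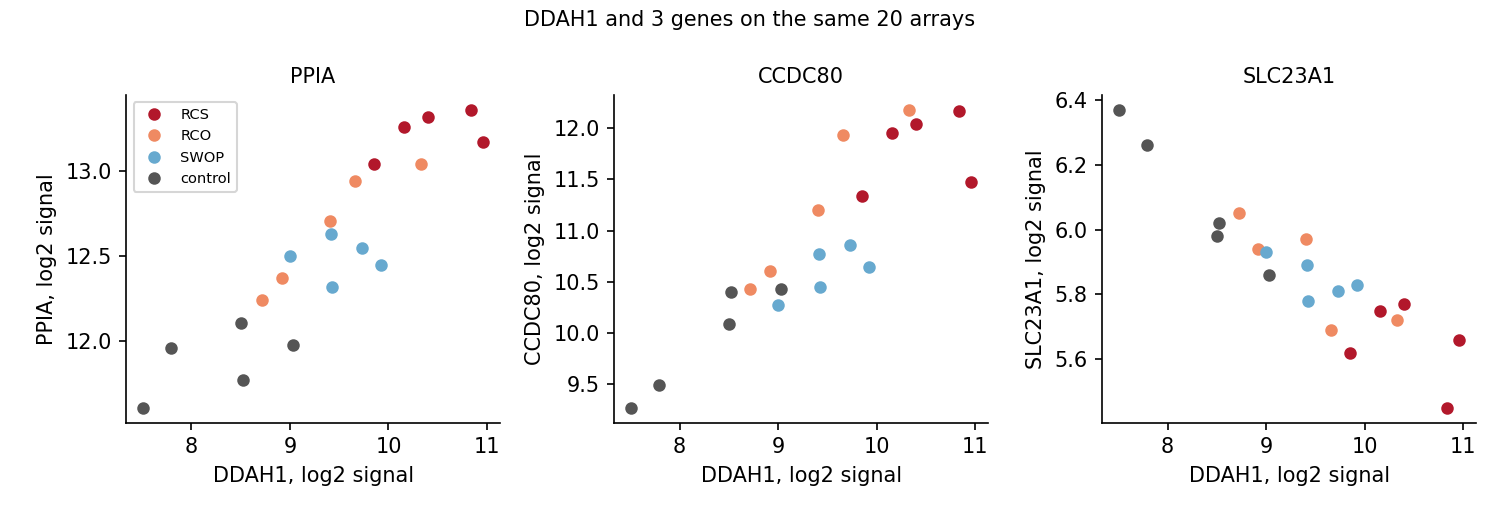
Log2 signal of PPIA, CCDC80 and SLC23A1 (vertical axes) against that of DDAH1 (horizontal axes) on the same 20 arrays, by group. PPIA and CCDC80 rise with DDAH1 over the 20 arrays and SLC23A1 falls, over a narrower span of 5.45 to 6.37.

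In RefSeq's pig annotation (Sscrofa11.1) the protein-coding genes next to DDAH1 are CYR61, a matricellular protein gene induced by growth factors, and BCL10, an adaptor of NF-kappaB signalling. Of the 4 nearest protein-coding genes on each side, CYR61 and WDR63 were measured. CYR61 stood at 9.98 to 10.48 in RCS, 9.83 to 11.30 in RCO, 8.01 to 10.15 in SWOP and 8.22 to 11.81 in control. It differed from control by 0.53 ± 0.48 in RCS (SE, adjusted p = 0.375) and by −0.47 ± 0.48 in SWOP (adjusted p = 0.558), and did not pass in any comparison. WDR63, a dim probe set at 4.35 to 4.77 in RCS and 4.12 to 4.35 in control, rose by 0.28 ± 0.09 in RCS (adjusted p = 0.0164) and differed by −0.06 ± 0.09 in SWOP (adjusted p = 0.711).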

How the data were processed

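The deposited log2 signals were analysed without further normalization. RMA and MAS5 are named, without version or role, per the submitters' processing notes, and per the labels' protocols Trizol RNA was labelled with biotin. The log base is not stated and was read as 2 because the signals span the usual range of log2 array data. Of 24123 probe sets, 124 control spots were left out, and of the 23999 tested, 10069 had 1 symbol in the platform annotation, 198 several and 13732 none. Of several probe sets for a gene, the brightest on average stood for it. DDAH1's gene identifier in the platform annotation is that of RefSeq.

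Group means were fitted to 20 arrays with lmFit and eBayes (limma 3.58.1, R 4.3.3, 16 residual degrees of freedom). P-values were adjusted over all probe sets (Benjamini-Hochberg) and were read for genes other than DDAH1. The fit was tested on simulated data. The number of arrays limits precision. The member, lists and alternatives were chosen with earlier results of these data known. By rule the text names DDAH1, its closest partners in the list (AGXT2, NOS2, NOS3, ARG1, ARG2, ASS1 and ASL where measured), list members that passed in some comparison, and genes among the 8 most and 8 least alike in each ranking. The 5 other list members that passed in none, RYR2, ENG, CNN1, LEP, S100A9, S100A8, S100A12 and the genes beside DDAH1 were named after their values were seen. The labels describe separate animals but do not tie replicate numbers to a shared batch. Sequences were not used here. Figures were made with matplotlib 3.10.9.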

Additional observations from a re-analysis of the deposited data

Results flagged for a closer look

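Among DDAH1 and the named genes of the nitric oxide list, 112 groups of 5 arrays were checked for a single array far from the rest, and 7 were found, where chance gives about 1 in 20. No DDAH1 array was among them. SLC7A1 on RCO replicate 1 was 6.77, with the next array at 8.17 and the highest at 8.72. GCHFR, the regulator of tetrahydrobiopterin synthesis, stood apart on replicate 1 of RCS, at 9.15 (next 8.74), of RCO, at 9.23 (next 8.90), and of SWOP, at 9.53 (next 9.03). Its highest control array was also replicate 1, at 9.09 (next 8.95), which did not stand apart. HSP90AB1 on SWOP replicate 5 was 12.30, with the next array at 12.49. CYGB on SWOP replicate 5 was 7.36, with the next at 7.52. ASL on SWOP replicate 1 was 8.36, with the next at 7.99.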

How the results depend on the processing

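DDAH1 differences from control ranged, with single arrays left out, over 1.98 to 2.36 in RCS, 0.91 to 1.33 in RCO and 1.04 to 1.42 in SWOP. RCS minus RCO ranged over 0.86 to 1.26, RCS minus SWOP over 0.81 to 1.09 and RCO minus SWOP over −0.32 to 0.08. The last turned in sign without RCO replicate 1 (0.03), RCO replicate 5 (0.08) or SWOP replicate 5 (0.01). Of 87 alternative DDAH1 values 84 kept their sign and these 3 turned. The 84 include values fixed in advance: with 1 probe set, the mean of all probe sets equals the main value. Leaving out the 2 arrays of highest spike-in signal removed no array from RCS minus control. Apart from RCO minus SWOP, it repeated single-array values in the other comparisons. Without RCO replicates 2 and 3 together, RCO minus SWOP was −0.48. Counts of called nitric oxide genes were 16 to 20 in RCS against control and 9 to 14 in RCS against SWOP with single arrays left out. In SWOP against control the count of 4 became 2 after quantile normalization, 2 with dim probe sets left out and 7 with array weights, and 0 to 5 with single arrays left out, 0 without SWOP replicate 4 or control replicate 4. In RCO against control the count of 1 became 2 after quantile normalization, 2 with array weights, 3 without the 2 arrays of highest spike-in signal (RCO and SWOP replicates 1), and 0 after median centring, with an intensity trend and robust spread, with only the 2 groups fitted, with the mean of all probe sets or without RCO replicates 2 and 3. Single arrays left out gave 0 to 3 there. In RCO against SWOP the count of 4 became 1 with the mean of all probe sets, 1 without RCO replicates 2 and 3 and 7 without the 2 spike-in arrays (3 to 6 with single arrays left out). In RCS against RCO the count of 9 became 3 with only the 2 groups fitted and 5 without the spike-in arrays (4 to 12 with single arrays left out: 5 without RCS replicate 2 or RCO replicate 1, 4 without RCS replicate 3 or RCO replicate 5). Of 917 recomputed calls of single list genes 780 were kept, 137 lost and 0 turned in sign. Here too some settings could not move a difference. For a gene with 1 probe set the mean of all probe sets gives the main value. In RCS against control, leaving out the 2 spike-in arrays removed no array of either group. The share of all genes called under each of these settings is not given. A change in a list count therefore cannot be told from a change in the call rate of all genes. The cause of these changes was not tested.

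Replicate numbers are shared between groups. Of 30 same-numbered pairs of arrays 10 had correlated deviations above 0.1 (−0.18 to 0.44), and the labels tie no number to a shared animal or batch, so the numbers were not taken as pairs. The pairs of RCS and RCO arrays ran from 0.08 to 0.44 and those of SWOP and control from −0.10 to 0.01. Pairs of the other groups lay between −0.18 and 0.20. That 11 of 20 arrays correlated best with an array of their own number is a hint from the data, not from the design. The number that chance would give is not stated here. With a replicate block the counts were 20 in RCS, 2 in RCO and 5 in SWOP against control, 14 in RCS against SWOP, 10 in RCS against RCO and 4 in RCO against SWOP. The share of all genes called with this block is not given either. A separate fit of other DDAH1 probe sets could not be run, since a single probe set is named for the gene.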
